A study of Mus musculus with 6 samples.

Results

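The genes of the dystrophin-glycoprotein complex were examined in C2C12 cells, a mouse myoblast line that can be differentiated into myotubes. The 9 genes were taken by name: Dmd, Utrn, Dag1, Sgca, Sgcb, Sgcd, Sgce, Sntb1 and Sntb2. Of these 9 genes, 8 had a listed transcript among the 11844 genes of the data, and 7 passed the filter on low values. The 3 siNC libraries came from C2C12 cells transfected with NC siRNA, a negative control. The 3 siCNN3 libraries came from C2C12 cells transfected with CNN3 siRNA, which targets calponin 3, an actin-binding protein. The cells of both groups had the same line, medium and labelled cell type (mouse myotube), and per the labels differentiation was induced with 2% horse serum. A transient siRNA lowers RNA in part, C2C12 is a single line, and nothing in the labels says that the 3 libraries of a group came from separate experiments. The p-values therefore measure only the spread between these libraries, which may be technical.

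The dystrophin-glycoprotein complex links the actin cytoskeleton of a muscle fibre, across its membrane, to laminin in the surrounding matrix. Dystrophin, or its paralogue utrophin, binds actin and the tail of β-dystroglycan, while α-dystroglycan carries the sugar chains that bind laminin. Sarcoglycans stabilize dystroglycan in the membrane, and syntrophins dock signaling proteins on dystrophin or utrophin. Loss of dystrophin or of α-, β- or δ-sarcoglycan causes muscular dystrophy, and utrophin is known to stand in for dystrophin in part. In muscle, α-sarcoglycan is typical of differentiated fibres, whereas ε-sarcoglycan and utrophin are made in many tissues.

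Sequences that tell transcripts of Utrn and Sgce apart are shown first, because some of these transcripts were at or near 0 in some libraries and above 15 FPKM in others. They were read from GENCODE M21 transcripts of the mouse genome build GRCm38, lie in coding sequence, and are written 5′ to 3′ on the minus strand, on which both genes lie. Utrn-206 is a short transcript with a first exon of its own of 933 nucleotides, inside the full-length gene, and it then runs on into exon 51 of the full-length Utrn-201. Capitals mark the last bases before this shared exon (chr10:12547947-12547961 in Utrn-206 and chr10:12621191-12621205 in Utrn-201), and the lower case letters are the shared exon.
Utrn-206: ACAAAATTTGAAAAGgacatccaggcagaa
Utrn-201: CGACAGCAGATGCTGgacatccaggcagaa
Sgce-207 leaves out exon 2 of Sgce-205, which has 123 nucleotides. Lower case letters are the end of the first exon, and capitals are the start of the next one (chr6:4719482-4719496 in Sgce-205 and chr6:4718064-4718078 in Sgce-207).
Sgce-205: cattcttactgacagTGTACACTCTTTTCT
Sgce-207: cattcttactgacagGGGAGGTTAGTAATG
A further exon of 27 nucleotides, exon 8 of Sgce-205, is held by Sgce-205, Sgce-207 and Sgce-209 and lies at chr6:4690469-4690495. All of it is in capitals.
Sgce exon 8: GGAAAAGAGAGACATGCAAACCCCAGA

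The values are FPKM, in which the fragments of a transcript are scaled by its length and by the size of the library. The authors gave them for each transcript, and they were summed here for each gene. The summed FPKM of a library lay between 322621 and 355591, and the counting error is unknown because the files hold no read numbers. Replicates of a group correlated with a Pearson's r of 0.947 to 0.980 across genes of the log2 values. Cnn3, the targeted gene, had 62.8, 61.4 and 62.8 FPKM in siNC replicates 1, 2 and 3 and 19.0, 39.2 and 25.6 FPKM in siCNN3 replicates 1, 2 and 3. All siCNN3 libraries lay below all siNC libraries, with a mean that was 44.8% of that of siNC. Its log2 fold change was −1.19 ± 0.24 (SE), with a limma adjusted p of 0.0665, and it passed the threshold only without siCNN3 replicate 2 (−1.46, limma adjusted p = 0.0475). Of the 20 markers of myotubes, 16 were listed, and their summed level was 210 to 258 FPKM in siNC and 121 to 140 FPKM in siCNN3. In siNC, Acta1 (skeletal actin) had 24.6 to 33.8 FPKM and Myh3 (embryonic myosin) 1.96 to 3.04 FPKM. Ckm (muscle creatine kinase) was under 1 FPKM in every library, and Actc1, Myh8, Ttn and Neb had no listed transcript, which says nothing of their level.

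No member of the complex passed the threshold of an adjusted p of 0.05 in siCNN3 against siNC, whereas 2.07% of the 11602 genes tested did. Sgcd (δ-sarcoglycan) had a mean in siCNN3 that was 149% of that in siNC, and Sntb1 (β1-syntrophin) had one that was 69.7% of it. For these 2 members the libraries of the groups did not overlap, and they were the 2 members with an unadjusted p below 0.05. Among all genes, 16.1% had such a p, 13.8% were higher in siCNN3 without overlap and 9.34% were lower without overlap. Utrn, Dag1, Sgcb, Sgce and Sntb2 overlapped between the groups, Sgca was near 0 and Dmd was not listed. Of the 7 members tested, 4 had a log2 fold change below 0 and 3 above 0, with a median of −0.08, compared with 0.03 for all genes tested.

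**Figure D1:**
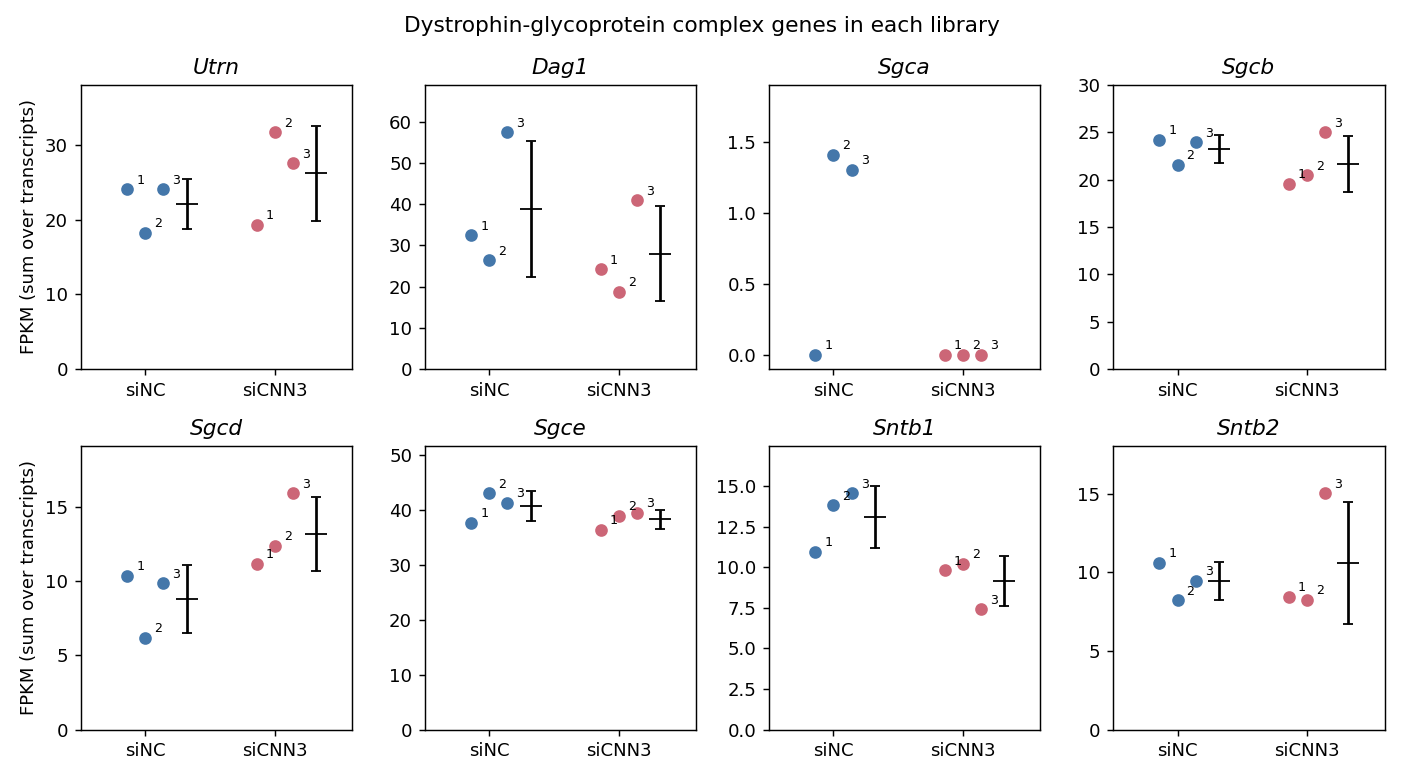
FPKM of 8 members of the complex in each library, with siNC in blue and siCNN3 in red. Points are libraries numbered by replicate, the black bars are mean ± SD (n = 3, not drawn for Sgca), and each panel has its own linear axis. The siCNN3 points lie above all siNC points for Sgcd and below them for Sntb1, and the groups overlap in the other panels.

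Dystrophin itself could not be followed. Dmd, the dystrophin gene, spans 2257272 bp (chrX:82948870-85206141, plus strand) and has 14 annotated transcripts, 3 of which are coding. None of the 14 was among the listed transcripts, so Dmd was not analysed here, and nothing follows from this about its expression. The ratio of Utrn to Dmd could not be formed for the same reason.

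Utrn (utrophin, chr10:12382188-12869365, minus strand) had 24.1, 18.3 and 24.1 FPKM in siNC replicates 1, 2 and 3 and 19.3, 31.8 and 27.6 FPKM in siCNN3 replicates 1, 2 and 3. The first siCNN3 library lay within the siNC range and the other two above it, so the groups overlapped. The log2 fold change was 0.22 ± 0.21 (SE), with a 95% interval of −0.28 to 0.71 and a limma adjusted p of 0.66. The highest value, in siCNN3 replicate 2, was made up mainly of the short transcript. Utrn-206 (5751 nucleotides, 25 exons) had 18.2 FPKM in that library, 0.021 FPKM in siNC replicate 1 and 0 in the other libraries. Full-length Utrn-201 (12382 nucleotides, 74 exons) had 2.51 FPKM in siCNN3 replicate 2, compared with 21.9, 16.9 and 23.0 FPKM in siNC and 17.8 and 24.8 FPKM in siCNN3 replicates 1 and 3. Utrn-205, a full-length transcript with other ends, and Utrn-202, which has 17 exons, were also highest in siCNN3 replicate 2, with 7.03 and 3.97 FPKM. Elsewhere they lay between 0.779 and 2.07 FPKM and between 0.338 and 0.726 FPKM. The short transcript thus held 57.4% of the FPKM of Utrn in 1 library of 6 and at most 0.0873% in the others.

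Since a short transcript gains more FPKM per fragment than a long one, Utrn was also expressed as FPKM times transcript length, in mapped fragments after scaling for library size, an alternative chosen after the data were seen. On this scale siNC had 291, 222 and 295 and siCNN3 had 232, 228 and 334. The second siCNN3 library, which was the highest of the 6 by summed FPKM, became the second lowest. The log2 fold change was then −0.04 ± 0.19 (SE) with a limma adjusted p of 0.945, so that the direction of Utrn depended on this choice. For transcripts at more than 0 in every library alone it was −0.18 (limma adjusted p = 0.792). In the whole table, 235 transcripts were at 0 in a library although another library of their group had at least 10 FPKM. An exact 0 in such a table can be a failed estimate, and whether Utrn-206 was transcribed in siCNN3 replicate 2 was not tested.

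Dag1 (chr9:108204634-108263958, minus strand) encodes dystroglycan, which is cut into its α and β chains. It had 32.5, 26.4 and 57.5 FPKM in siNC and 24.2, 18.8 and 41.0 FPKM in siCNN3. Within both groups replicate 3 was the highest and replicate 2 the lowest, and the groups overlapped. The mean in siCNN3 was 72.1% of that in siNC, and the log2 fold change was −0.45 ± 0.36 (SE), with a 95% interval of −1.31 to 0.41 and a limma adjusted p of 0.583. With a coefficient of variation of 42.4% in siNC and 41.3% in siCNN3, Dag1 was the most variable of the 7 members tested. Without siNC replicate 3 its log2 fold change was −0.14, without siCNN3 replicate 2 it was −0.21 and without siCNN3 replicate 3 it was −0.76.

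This spread lay in 1 of 4 listed transcripts of Dag1. Dag1-203 had 18.6, 12.4 and 41.9 FPKM in siNC and 16.0, 10.5 and 29.1 FPKM in siCNN3. Dag1-204, which holds the same 2679 coding nucleotides but ends further downstream, had 10.6, 11.2 and 10.6 FPKM in siNC and 6.34, 6.99 and 8.71 FPKM in siCNN3. All siCNN3 libraries lay below all siNC libraries for Dag1-204, with a log2 fold change of −0.51 ± 0.16 (SE), an unadjusted p of 0.02 and a limma adjusted p of 0.331 over 21668 transcripts. Dag1-203 and Dag1-204 have 4 exons each and differ at both ends, and their shares overlapped between the groups. The share of Dag1-204 was 32.5, 42.5 and 18.5% in siNC and 26.2, 37.2 and 21.3% in siCNN3 (exact permutation test, p = 0.8, n = 3 per group).

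Of the sarcoglycans, Sgcd (chr11:46896253-47988969, minus strand) had the largest log2 fold change of the 7 members tested. It had 10.4, 6.21 and 9.88 FPKM in siNC and 11.2, 12.4 and 15.9 FPKM in siCNN3. Every siCNN3 library lay above every siNC library, but the lowest siCNN3 value was only slightly above the highest siNC value. The log2 fold change was 0.55 ± 0.22 (SE), with a 95% interval of 0.01 to 1.08, an unadjusted p of 0.0458 and a limma adjusted p of 0.299. The exact permutation test gave p = 0.1 (two-sided, n = 3 per group), the smallest that this design allows. A single transcript, Sgcd-201 (1617 nucleotides, 8 exons), carried all of these values. Over 16 alternatives the log2 fold change of Sgcd stayed between 0.34 and 0.67 and the limma adjusted p between 0.274 and 0.581.

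Sgcb (β-sarcoglycan, chr5:73632749-73647790, minus strand), which forms the core of the sarcoglycan complex with δ-sarcoglycan, had 24.2, 21.6 and 24.0 FPKM in siNC and 19.6, 20.5 and 25.0 FPKM in siCNN3. The siCNN3 libraries included both the lowest values and the highest. Between the groups, Sgcb had a log2 fold change of −0.10 ± 0.14 (SE), with a 95% interval of −0.43 to 0.22 and a limma adjusted p of 0.754.

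Sgca (α-sarcoglycan, chr11:94962791-94976327, minus strand), a sarcoglycan largely restricted to striated muscle, was the lowest of the listed members. It was listed at 0, 1.41 and 1.31 FPKM in siNC and at 0 in all 3 siCNN3 libraries. One siNC library was at 0 too, so the groups overlapped, and the mean lay under the filter of 0.5 FPKM. Without that filter its log2 fold change on the scale of FPKM + 1 was −0.83, with a limma adjusted p of 0.303. Only Sgca-201 of its 5 annotated transcripts was listed. The summed myotube markers were lower in every siCNN3 library than in any siNC library, and their part in the values of Sgca was not tested.

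Sgce (ε-sarcoglycan, chr6:4674350-4747207, minus strand), a paralogue of Sgca made in many cell types, was the most abundant member by mean in both groups. It had 37.6, 43.0 and 41.3 FPKM in siNC and 36.3, 38.9 and 39.4 FPKM in siCNN3. The libraries overlapped, with coefficients of variation of 6.82% in siNC and 4.37% in siCNN3, compared with 6.33% and 13.5% for Sgcb. Sgce had a log2 fold change of −0.08 ± 0.11 (SE), with a 95% interval of −0.34 to 0.17 and a limma adjusted p of 0.75. Since Sgca was at 0 in 4 libraries, the ratio of Sgce to Sgca could not be formed.

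Below this sum, the most abundant of the 6 listed transcripts of Sgce varied between libraries. Sgce-207, which lacks exon 2, had 22.1, 18.7 and 15.4 FPKM in siNC and 0, 12.8 and 17.2 FPKM in siCNN3. Sgce-205, which has that exon, had 2.57, 3.87 and 15.0 FPKM in siNC and 26.7, 10.1 and 2.57 FPKM in siCNN3. Sgce-202, which has exon 2 but not the 27-nucleotide exon, had 12.9, 14.2 and 4.54 FPKM in siNC and 3.49, 8.95 and 12.1 FPKM in siCNN3. The library at 0 for Sgce-207, siCNN3 replicate 1, was the highest for Sgce-205 and the lowest for Sgce-202. Sgce-201, Sgce-203 and Sgce-209 had at most 4.68 FPKM in any library. The transcripts that hold the 27-nucleotide exon, which include both, were also summed. Their share was 65.8, 61.2 and 80.4% in siNC and 82.1, 68.7 and 62.0% in siCNN3, and the groups overlapped (exact permutation test, p = 0.7, n = 3 per group). The share of Sgce-207 was 58.7, 43.6 and 37.2% in siNC and 0, 32.9 and 43.7% in siCNN3 (exact permutation test, p = 0.3, n = 3 per group). These groupings of transcripts were chosen after the values were seen. Among transcripts at more than 0 in every library alone, Sgce changed direction (0.31, limma adjusted p = 0.585). That choice leaves out Sgce-201, Sgce-203 and Sgce-207, of which Sgce-207 alone had a lower mean in siCNN3 (10.0 FPKM) than in siNC (18.7 FPKM).

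**Figure D2:**
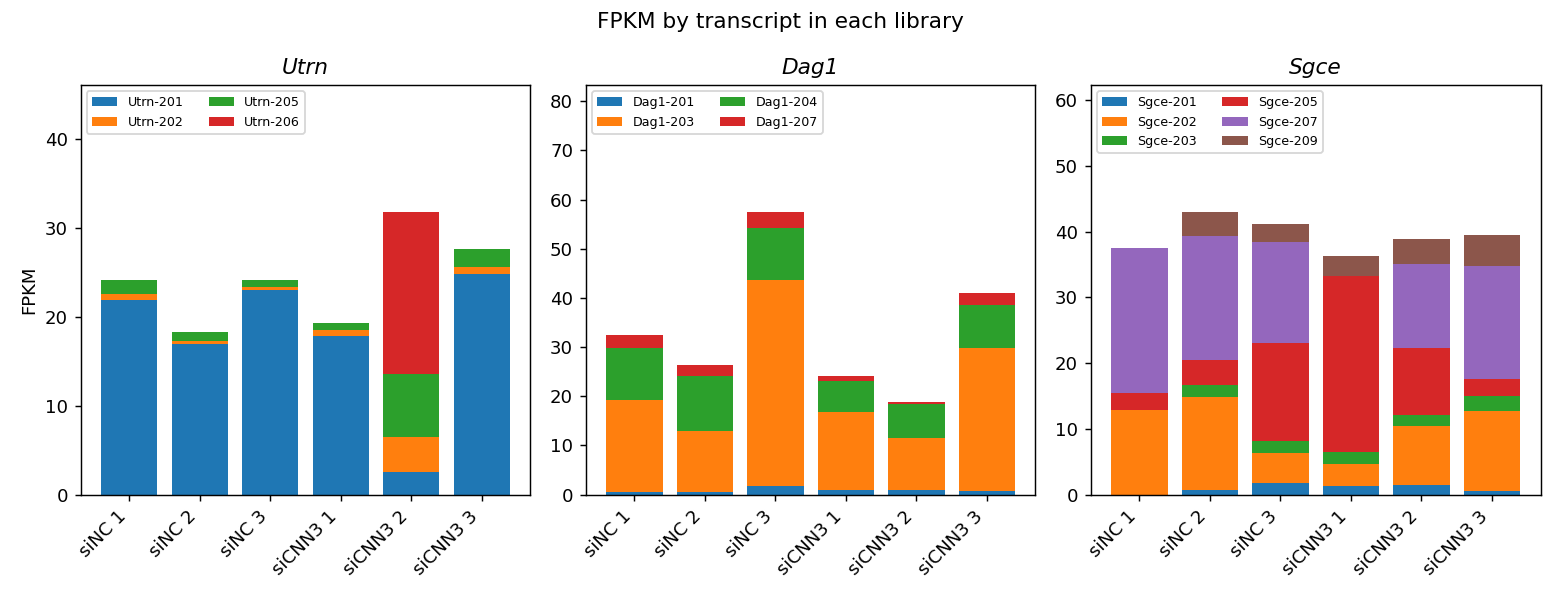
Stacked bars of FPKM for each listed transcript of Utrn, Dag1 and Sgce in each of the 6 libraries (linear axes from 0). Utrn-206 fills most of the bar in siCNN3 replicate 2 (18.2 FPKM), Dag1-203 varies most between replicates, and Sgce-202, Sgce-205 and Sgce-207 vary while the height of the Sgce bars stays between 36.3 and 43.0 FPKM.

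Over all 19 listed transcripts of the members, 18 were tested and 0 passed the threshold (0.54% of all transcripts did). At an unadjusted p below 0.05 there were 2, Dag1-204 and Sntb1-201, and 10.7% of all transcripts reached this. The groups did not overlap for Dag1-204 and Sntb1-201, which were lower in siCNN3 (7.54% of all transcripts), and for Sgcd-201 and Utrn-202, which were higher (10.4% of all transcripts). Utrn-202 was low and the margin small, with 0.686 FPKM in siNC replicate 1 and 0.714 FPKM in siCNN3 replicate 1. Only siCNN3 replicate 2 stood clearly above, with 3.97 FPKM. Of the 8 listed members, 5 had a single listed transcript, and the other 14 transcripts belonged to Utrn, Dag1 and Sgce.

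The syntrophins Sntb1 and Sntb2 encode adaptor proteins that bind dystrophin and utrophin. Sntb1 (β1-syntrophin, chr15:55636388-55906949, minus strand) had 11.0, 13.8 and 14.6 FPKM in siNC and 9.82, 10.2 and 7.41 FPKM in siCNN3. All siCNN3 libraries lay below all siNC libraries. Sntb1 had a log2 fold change of −0.48 ± 0.18 (SE), with a 95% interval of −0.90 to −0.06, an unadjusted p of 0.0301 and a limma adjusted p of 0.248. The exact permutation test again gave its smallest p of 0.1 (n = 3 per group). Over 16 alternatives the log2 fold change of Sntb1 stayed between −0.59 and −0.35 and the limma adjusted p between 0.099 and 0.536.

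Sntb2 (β2-syntrophin, chr8:106935750-107019714, plus strand) had 10.6, 8.24 and 9.46 FPKM in siNC and 8.45, 8.27 and 15.0 FPKM in siCNN3. A single library, siCNN3 replicate 3, lay above all others. The log2 fold change was 0.11 ± 0.24 (SE), with a 95% interval of −0.46 to 0.68 and a limma adjusted p of 0.862, and it was −0.15 without siCNN3 replicate 3. Markers of proliferating cells were low in the same library, with summed levels of 268 FPKM there, 437 and 418 FPKM in siCNN3 replicates 1 and 2, and 256, 456 and 365 FPKM in siNC, and their part in the values of Sntb2 was not tested. The log2 ratio of Sntb2 to Sntb1 was −0.05, −0.75 and −0.62 in siNC and −0.22, −0.31 and 1.02 in siCNN3. The difference of 0.64 did not pass the exact permutation test (p = 0.3, n = 3 per group), and it was 0.21 without siCNN3 replicate 3.

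**Figure D3:**
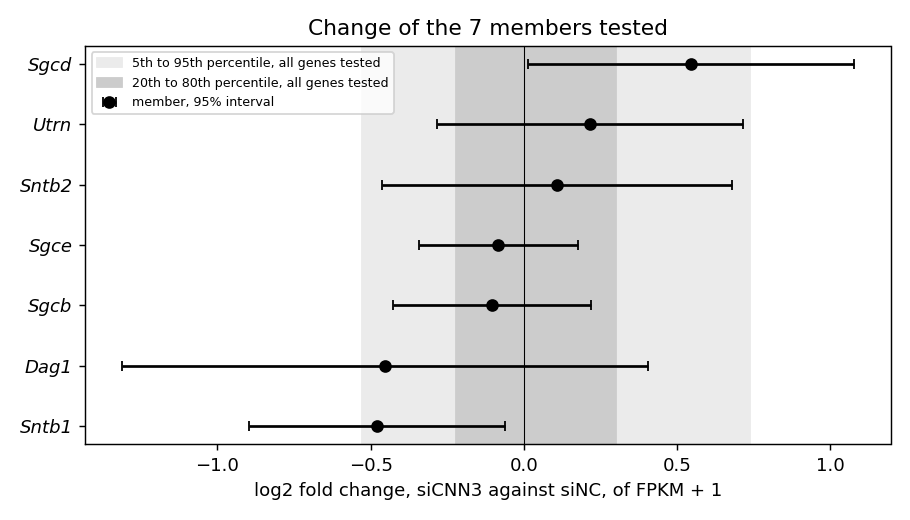
Log2 fold change of FPKM + 1 in siCNN3 against siNC for the 7 members tested, with 95% intervals from limma, over grey bands from the 20th to the 80th and from the 5th to the 95th percentile of all 11602 genes tested. The points run from −0.48 for Sntb1 to 0.55 for Sgcd, and only the intervals of these 2 members leave out 0.

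FPKM is a value per length, and the sums are set beside each other here as they stand. They cover listed transcripts only, such as 1 of 4 annotated for Sgcd and 4 of 13 for Utrn. The order is therefore one of these sums and may differ from that of the RNA levels. In siNC the order by mean was Sgce (40.6 FPKM), Dag1 (38.8), Sgcb (23.3), Utrn (22.2), Sntb1 (13.1), Sntb2 (9.44), Sgcd (8.82) and Sgca. The ranges of the 3 libraries overlapped between the neighbours Sgce and Dag1, Sgcb and Utrn, and Sntb2 and Sgcd, and not between the other neighbours. In siCNN3 the order was Sgce (38.2 FPKM), Dag1 (28.0), Utrn (26.2), Sgcb (21.7), Sgcd (13.2), Sntb2 (10.6), Sntb1 (9.15) and Sgca. The mean of Utrn in siCNN3 includes 18.2 FPKM of Utrn-206 from replicate 2 alone. Neighbours from Sgce to Sgcb overlapped in siCNN3, as did those from Sgcd to Sntb1. Sntb1 thus stood above Sgcd in every siNC library and below it in every siCNN3 library. The members fell into an upper set of Sgce, Dag1, Sgcb and Utrn and a lower set of Sntb1, Sntb2 and Sgcd in both groups.

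Genes with the profile most like that of Sgcd or Sntb1 across the 6 libraries were sought by the root mean square distance between log2 values centred on siNC. For Sgcd these were Fbln2, which encodes the matrix protein fibulin 2 (distance 0.047), 9130008F23Rik (0.064) and Pmaip1, which encodes a protein of the BCL-2 family (0.076). Their log2 fold changes were 0.59, 0.57 and 0.51. For Sntb1 they were Pros1, which encodes protein S (0.039), Pcyt2, an enzyme of phosphatidylethanolamine synthesis (0.049), and Pi16, a peptidase inhibitor (0.066), with log2 fold changes of −0.45, −0.45 and −0.44. Fold changes like those of the member follow from how these 6 genes were picked and are not a separate result. None of the 6 passed the threshold (limma adjusted p between 0.216 and 0.34). Pi16 was low, with a mean of 0.733 FPKM in siNC and 0.280 FPKM in siCNN3.

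The genes around the complex were taken from 5 written lists of 67 genes, of which 54 were tested. In limma 0 passed the threshold, which 2.07% of all genes passed. An unadjusted p below 0.05 was found for 2 genes that were higher in siCNN3 and 8 that were lower, beside 16.1% of all genes in either direction. Over all genes tested, 46.0% had a log2 fold change below 0. Without overlap of the groups, 13.8% of all genes were higher in siCNN3 and 9.34% were lower. The lists below are to be read against these shares. Of 12 other subunits and partners of the complex, 7 were listed and 6 tested, with a median log2 fold change of −0.25. Sspn (sarcospan, which sits among the sarcoglycans) had 4.77, 4.75 and 5.72 FPKM in siNC and 2.91, 3.99 and 3.32 FPKM in siCNN3, without overlap (−0.47, limma adjusted p = 0.219). Dtna (α-dystrobrevin) had a log2 fold change of 0.09, and Sgcz, Sntg1, Sntg2, Nos1 and Cav3 had no listed transcript.

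The genes that build the laminin-binding sugar of dystroglycan had a median change close to that of all genes. Of the 19 genes on this list, which counts Dag1 as their substrate, 17 were listed and tested, 11 had a log2 fold change below 0 and 6 above 0, and the median was −0.02. Rxylt1, a xylosyltransferase of this pathway, had 8.98, 9.66 and 9.54 FPKM in siNC and 11.4, 13.0 and 11.4 FPKM in siCNN3, without overlap (0.31, limma adjusted p = 0.287). Large2 and Ispd had no listed transcript.

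Among 8 tested genes for matrix ligands of dystroglycan, 7 had a log2 fold change below 0. The exception was Agrn (agrin, which organizes the neuromuscular junction), with 11.3, 16.6 and 16.5 FPKM in siNC and 25.8, 29.8 and 48.8 FPKM in siCNN3. Every siCNN3 library lay above every siNC library, with a log2 fold change of 1.15 ± 0.27 (SE) and a limma adjusted p of 0.0899. Lama4 (laminin α4) had 5.88, 5.41 and 5.92 FPKM in siNC and 2.41, 2.54 and 3.85 FPKM in siCNN3, without overlap (−0.79, limma adjusted p = 0.0854). Lamb1 was also lower without overlap (−0.35, limma adjusted p = 0.175). Lama2, the laminin chain of the muscle fibre, had a log2 fold change of −0.08 with overlapping libraries. Without siCNN3 replicate 3, Lama4 passed the threshold (−0.95, limma adjusted p = 0.0230), as did 5.27% of all genes.

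Of 16 genes for intracellular links and membrane repair, 13 were tested, with 10 below 0 and a median of −0.21. Plec (plectin, which ties intermediate filaments to the membrane) had 44.3, 49.0 and 47.8 FPKM in siNC and 32.1, 26.7 and 36.1 FPKM in siCNN3, without overlap (−0.57, limma adjusted p = 0.105). Without siCNN3 replicate 3 Plec passed the threshold (−0.66, limma adjusted p = 0.0451), where 5.27% of all genes passed. Des (desmin, the muscle intermediate filament protein) had a log2 fold change of −0.36 (limma adjusted p = 0.196), also without overlap. Mapk12 (−0.29, limma adjusted p = 0.313) and Mark2 (−0.21, limma adjusted p = 0.446) were lower without overlap too, which made 4 of the 13. Of the 11 genes for laminin-binding integrins and their partners, the other link from actin to laminin, 8 were below 0, with a median of −0.13. Itgb4 (integrin β4) and Vcl (vinculin) did not overlap, with log2 fold changes of −0.74 (limma adjusted p = 0.231) and −0.39 (limma adjusted p = 0.264). Itgb4 was low, with 1.08, 2.93 and 2.45 FPKM in siNC and 0.621, 0.963 and 0.912 FPKM in siCNN3. Itga7, the muscle laminin receptor, overlapped (−0.63, limma adjusted p = 0.244) and passed the threshold without siCNN3 replicate 3 (−0.89, limma adjusted p = 0.0210).

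**Figure D4:**
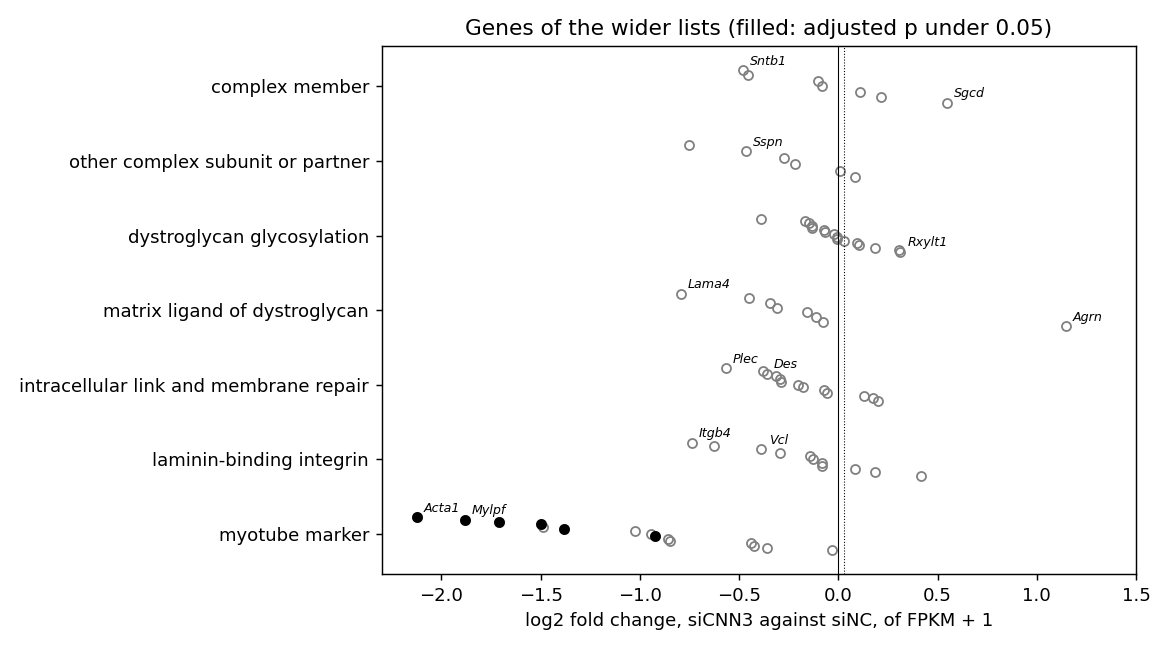
Log2 fold change of FPKM + 1 in siCNN3 against siNC for each tested gene of the complex, of 5 lists around it and of the myotube markers, with filled points at an adjusted p under 0.05 and a dotted line at the median of all genes (0.03). The complex members span −0.48 to 0.55 on both sides of 0, Agrn lies highest at 1.15, and the 6 filled points belong to the myotube markers.

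The myotube markers are given as values beside the members. All 15 tested had a log2 fold change below 0 and 6 passed the threshold, as 2.07% of all genes did in either direction, among them Acta1 (−2.12), Mylpf (−1.88), Tnnt1 (−1.71), Tnnt3 (−1.50) and Myh3 (−1.38). Of the myotube markers 1 passed without siNC replicate 3 or without siCNN3 replicate 2 (Acta1 in both), 2 passed without siCNN3 replicate 1, and 5 or 6 passed without any other library. In bulk RNA, fewer cells of a type and less RNA per cell cannot be told apart, and the part of these markers in the member values was not tested. Of the 7 markers of proliferating cells 0 passed the threshold. Markers of other cells were few: 1 of 8 for blood and endothelium (Cd68, 1.96 to 5.39 FPKM), 1 of 7 for Schwann cells and neurons (Tubb3, 2.72 to 4.12 FPKM) and 3 of 6 for adipocytes were listed. Without overlap, Cd68 was lower in siCNN3 (−0.54, limma adjusted p = 0.312) and Tubb3 was higher (0.32, limma adjusted p = 0.329). Of the adipocyte markers Fabp4 fell (−1.45), while Cebpa (−0.42) and Pparg (0.21) overlapped between the groups. Of 8 markers of fibroblasts or mesenchyme, which myoblast lines also make, 5 were listed, with summed levels of 1054 to 1445 FPKM in siNC and 698 to 860 FPKM in siCNN3 and 0 past the threshold. The groups did not overlap for Dcn (decorin, −1.21, limma adjusted p = 0.0750) and Col3a1 (collagen III, −0.91, limma adjusted p = 0.131).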

How the data were processed

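Total RNA of C2C12 cells was sequenced in 3 siNC and 3 siCNN3 libraries. The authors deposited FPKM values for 24023 Ensembl transcripts. The submitters' processing notes name Bowtie 0.12.2 and the builds mm8 and mm10, while the program and annotation behind the FPKM values are not given in the sources used here. The depth is unknown.

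Identifiers without version matched 23959 transcripts of GENCODE M21 (GRCm38). The 64 others (0.104 to 0.136% of FPKM) were left out. FPKM were summed per gene, and genes whose mean reached 0.5 FPKM were fitted as log2(FPKM + 1) with limma 3.58.1 in R 4.3.3 (mean-variance trend, Benjamini-Hochberg adjustment over 11602 genes, threshold 0.05). Fold changes on this scale understate those of low genes. Transcripts were fitted in the same way. Single values were compared with a two-sided exact permutation test, which cannot give a p below 0.1 with 3 against 3. The fit was tested on simulated data.

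The members and lists were chosen with earlier results of these data known. The text names all members, Cnn3, genes of a list past the threshold (up to 5), the 2 genes of a list with the largest change and no overlap between groups, and the 3 nearest profiles of Sgcd and Sntb1. Other genes were chosen after their values were seen. Some genes of the lists are counted but not reported here by name. The lists hold other subunits and partners, dystroglycan glycosylation, matrix ligands, intracellular links and membrane repair, laminin-binding integrins, and markers of myotubes, proliferating cells, fibroblasts, adipocytes, blood and endothelium, and Schwann cells and neurons. Alternatives were a pseudocount of 0.1, no filter or one at 5 FPKM, a block for the replicate number, quantile normalization, median-of-ratios scaling, no trend, each library left out, and 3 other ways to sum transcripts.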

Additional observations from a re-analysis of the deposited data

How the results depend on the processing

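The 7 tested members stayed at 0 calls under all 16 alternatives, and the direction of Dag1, Sgcb, Sgcd and Sntb1 held under each. With 1 library left out, Dag1 lay between −0.76 and −0.14, Utrn between 0.07 and 0.41, Sgcb between −0.21 and −0.04, Sgcd between 0.34 and 0.67, Sgce between −0.14 and −0.04 (−0.19 with quantile normalization), and Sntb1 between −0.59 and −0.35. The direction of Utrn reversed with transcripts above 0 in every library alone (−0.18) and with FPKM times length (−0.037), that of Sgce with transcripts above 0 in every library alone (0.31), and that of Sntb2 without siCNN3 replicate 3 (−0.15, and up to 0.24 without another library). Of the transcripts, Utrn-201 and Utrn-206 reversed without siCNN3 replicate 2, Sgce-205 without siCNN3 replicate 1, and Dag1-203 without siNC replicate 3 or siCNN3 replicate 2 (0.01). With 1 library left out, Utrn-201 lay between −1.40 and 0.044, Utrn-206 between −0.010 and 2.12, Sgce-205 between −0.052 and 1.43, and Dag1-203 between −0.69 and 0.15. Sgce-207 (−1.63 in the main fit) kept its direction but lay between −2.39 without siCNN3 replicate 3 and −0.30 without siCNN3 replicate 1. Keeping only protein-coding transcripts changed no member, because all their listed transcripts are coding. Of the 3 planned ratios only Sntb2 to Sntb1 could be computed, and it lay between 0.21 and 0.88 when 1 library was left out.

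Over all genes, 201 were called higher and 39 lower. Leaving out 1 library moved these counts to between 16 and 448 and between 4 and 163. Higher calls moved by over 1.5 times without siNC replicate 1 (70) or 3 (16) or siCNN3 replicate 1 (39), 2 (29) or 3 (448), and lower calls without siNC replicate 2 (20) or 3 (4) or siCNN3 replicate 1 (7), 2 (4) or 3 (163). Lower calls were 63 with median-of-ratios scaling and 93 with quantile normalization. Calls in the lists around the complex ranged from 0 to 3, the latter without siCNN3 replicate 3 (Lama4, Plec and Itga7, where 5.27% of all genes were called). Cnn3 lay between −1.46 and −0.95 and passed the threshold only without siCNN3 replicate 2 (−1.46). The causes were not tested.

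Libraries with the same replicate number did not consistently deviate together (r = −0.28, 0.31 and −0.02). Not every library correlated best with its own number, and siNC replicate 1 with siCNN3 replicate 3 had r = 0.44. Deviations from the mean of 3 libraries are not independent, so these values cannot decide whether the numbers mark pairs or shared batches. With the replicate block 62 genes were called higher and 6 lower, and 0 members.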
